A study of Mus musculus with 2 samples.

Results

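The collagen chain genes of the mouse were examined in Tregs from the spleen and the lung of BLM-injured mice. Members were the genes whose symbol is Col, a type number, the letter a and a chain number, such as Col1a1, and 44 of the 24346 listed symbols matched. Bulk RNA-seq was performed on GFP+CD4+ cells of FDG mice (genotype Foxp3-DTR-GFP), in which the Foxp3 gene drives GFP together with the diphtheria toxin receptor. Both libraries came from mice given bleomycin (BLM), a drug that injures the lung and leads to fibrosis, and cells were sorted on day 15. There was 1 library per tissue, each from the pooled cells of 3 mice aged 10 to 16 weeks, and uninjured mice were not analysed here. A pool is a single sample, so differences between the tissues were described without a p-value, and neither the spread between mice nor the effect of BLM could be estimated.

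Collagens are the main structural proteins of the extracellular matrix. Each chain repeats a triplet that begins with glycine, and chains wind around each other into a rope-like helix before they are secreted. Fibrillar collagens such as types I and III form the tensile fibers of scar tissue, type IV forms the sheet of basement membranes, and type VI forms fine beaded filaments around cells. In lung fibrosis these chains are mainly made by fibroblasts and myofibroblasts, whereas T cells are not known as a major source.

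The coding sequences show what the members share and where they differ. The stretches below are the first 24 codons of the longest unbroken glycine repeat in 5 chains described below, with the glycine codon (GGN) that opens each triplet in capitals and the 2 codons that follow it in lower case. The span of each stretch is given on GRCm38, the same assembly as the mm10 of the files, and includes the introns between its exons, and the letters are the spliced coding sequence of the GENCODE transcript.
Col1a1, chr11:94939451-94939921, plus strand: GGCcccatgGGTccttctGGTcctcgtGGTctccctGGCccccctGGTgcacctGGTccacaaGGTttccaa
Col1a2, chr6:4512406-4515498, plus strand: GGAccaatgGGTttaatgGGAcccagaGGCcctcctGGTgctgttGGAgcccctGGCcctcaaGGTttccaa
Col3a1, chr1:45323762-45325395, plus strand: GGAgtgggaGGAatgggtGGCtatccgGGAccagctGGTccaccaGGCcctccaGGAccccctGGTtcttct
Col4a1, chr8:11247042-11267614, minus strand: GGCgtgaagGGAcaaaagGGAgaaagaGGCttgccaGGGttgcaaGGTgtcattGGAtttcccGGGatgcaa
Col6a1, chr10:76719641-76720996, minus strand: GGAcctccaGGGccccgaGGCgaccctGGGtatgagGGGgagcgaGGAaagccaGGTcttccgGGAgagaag
Each stretch holds 8 triplets opened by a glycine codon, and that of Col3a1 has 2 more glycine codons at the end of a triplet, 10 in all. The Col1a1 stretch begins at codon 168 and lies in exons 6 to 8 of 51, and that of Col1a2 begins at codon 97 in exons 6 to 8 of 52. The Col3a1 stretch spans exons 5 and 6 of 51, that of Col4a1 exons 2 and 3 of 52, and that of Col6a1 exons 8 and 9 of 35.

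The longest unbroken repeat of each fibrillar chain, 216 to 344 triplets, exceeded that of every chain of the other classes, only some of whose ranges overlapped. It was 338 triplets in Col1a1, 339 in Col1a2 and 344 in Col3a1, and 9 of the 44 members had a run over 300, all of them fibrillar. In the type IV chains the longest run was between 39 and 66 triplets, although 74.9% to 78.9% of their codons lay in runs of at least 3 triplets. Their repeat is long and often interrupted. In type VI chains the longest run was 37 to 87 triplets, and all runs of at least 3 triplets together held 10.05% to 31.9% of codons. The lowest share was that of Col12a1, a very long chain that decorates fibrils, with 8.12% of 3065 codons.

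Collagen RNA was scarce in both libraries. The members had a summed level of 4.11 FPKM in the splenic library and 33.3 in the lung library, which were 0.000686% and 0.00412% of all FPKM listed, an 8.10-fold higher sum in lung (6.01-fold after both libraries were scaled to the same total). FPKM is the number of fragments per kilobase of transcript, scaled to the mapped fragments of the library. The reads behind these values were estimated from transcript lengths and the value of 1 read, and the 44 genes together had about 199 reads in spleen and 2092 in lung. In bulk RNA, fewer cells that express a gene and less RNA per cell cannot be told apart.

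**Figure D1:**
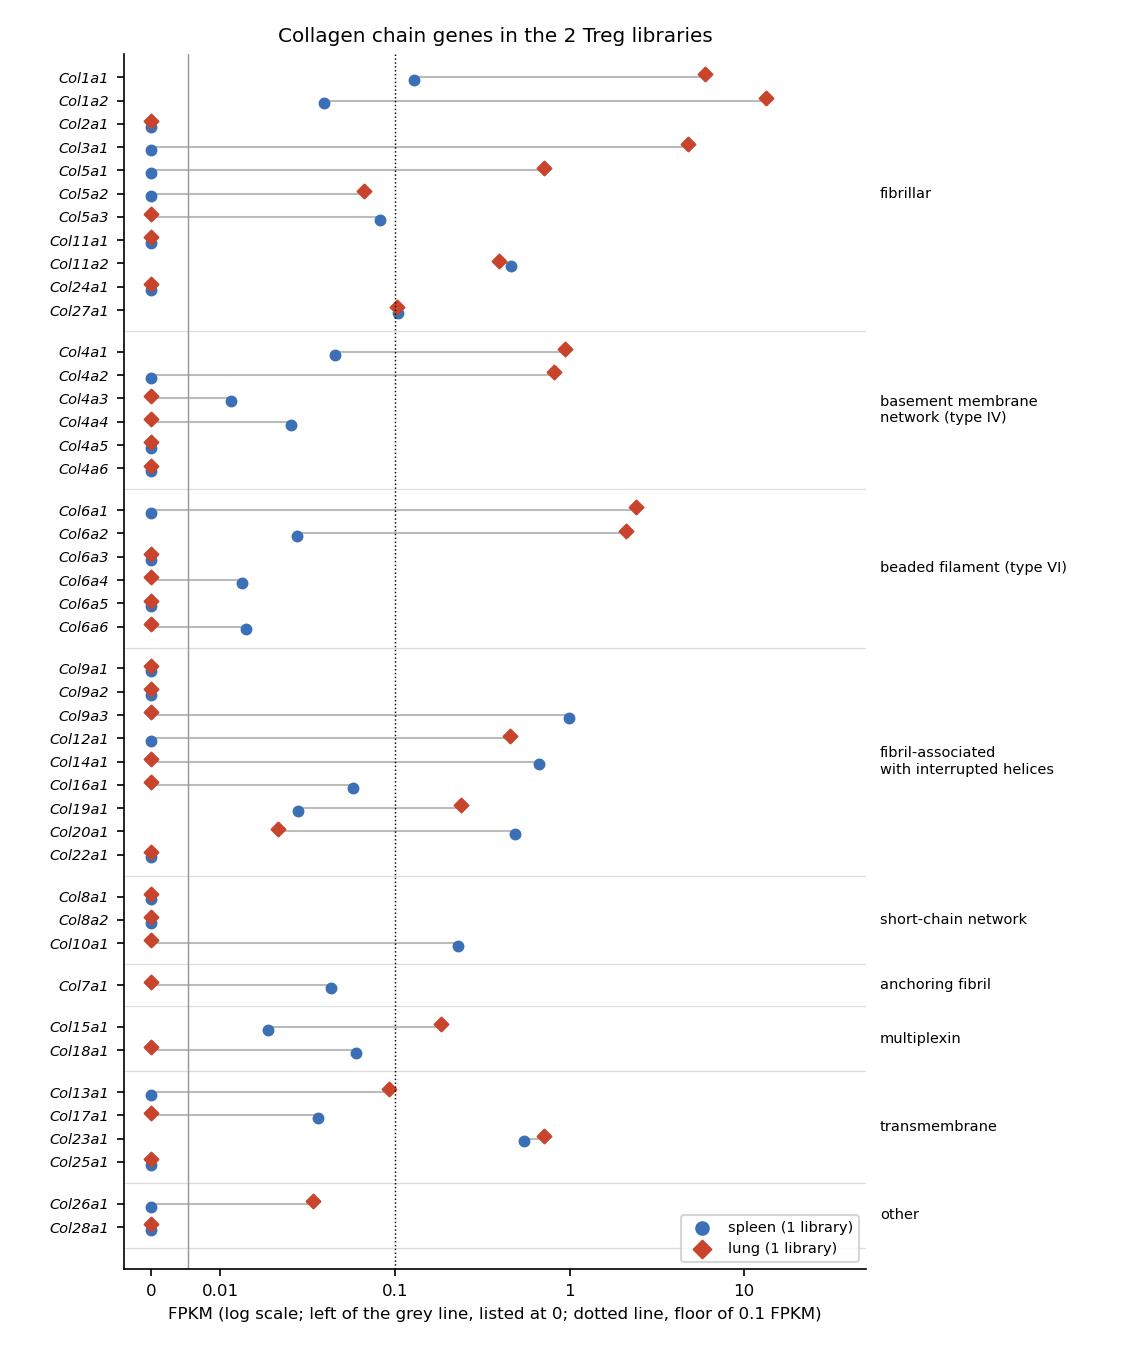
FPKM (log scale) of the 44 collagen genes by class in the spleen library (circles) and the lung library (diamonds), with values of 0 drawn left of the grey line. Col1a2, Col1a1, Col3a1, Col6a1 and Col6a2 lie between 2.1 and 13.4 FPKM in lung, and no gene reaches 1 FPKM in spleen.

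The 2 libraries listed different members. In spleen 22 genes were above 0, in lung 18 and in both 10, so 12 were above 0 in spleen alone and 8 in lung alone, while 14 were at 0 in both. Of all symbols, 9.05% were above 0 in spleen alone and 4.55% in lung alone, against 27.3% and 18.2% of the collagen genes. The spleen-only genes were low, and 9 of the 12 rested on fewer than 6 reads. At 10 or more reads the order turned, with 5 genes in spleen and 13 in lung. By FPKM, 5 genes reached 1 FPKM in lung and none in spleen, where the highest was Col9a3 with 0.987.

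To compare the tissues with the 20-fold threshold of the study, values below 0.1 FPKM were raised to 0.1 before the ratio of lung to spleen was taken, and a ratio over 20 was counted. In lung, 5 collagen genes were over 20-fold higher, namely Col1a1, Col1a2, Col3a1, Col6a1 and Col6a2, which is 11.4% of the members, where 1.62% of all symbols were over 20-fold higher. No collagen gene was over 20-fold lower, where 1.17% of all symbols were. With this floor none could be, since the highest spleen value of a member, 0.987 FPKM, is less than 20 times the floor. With a floor of 0.01 FPKM 4 members were over 20-fold lower. The median log2 ratio was 0 over the 44 members and 0 over all symbols, since 26 members were under 0.1 FPKM in both libraries and entered with a ratio of 1. By the deposited values 15 members were higher in lung and 15 lower. Scaling both libraries to the same total turned Col23a1 and gave 14 and 16.

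**Figure D2:**
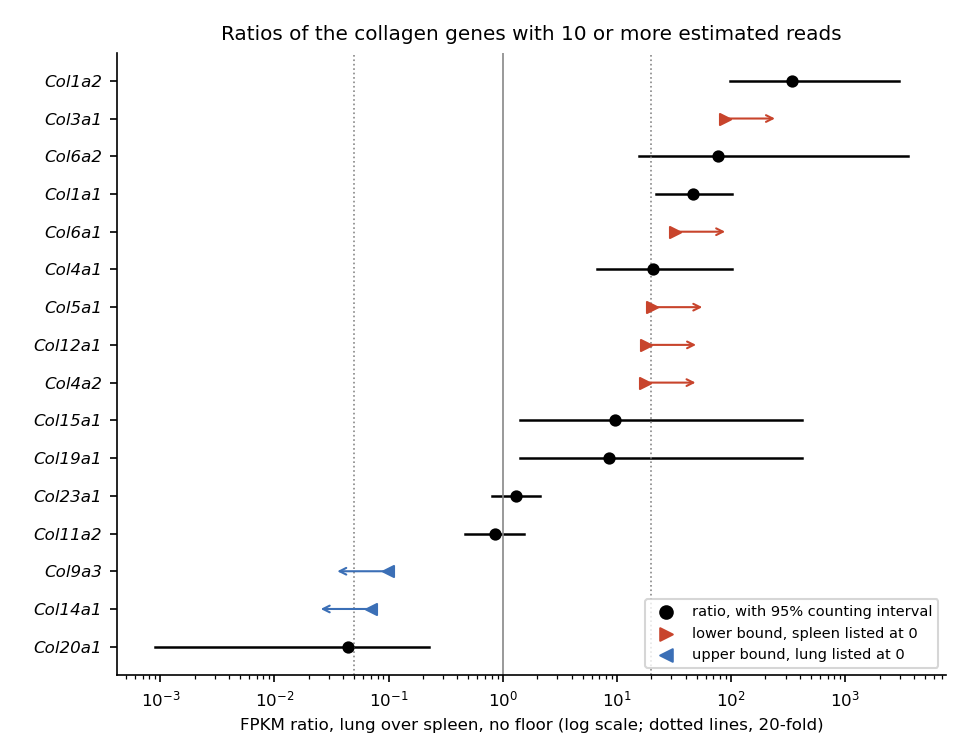
FPKM ratio of lung over spleen without a floor (log scale) for the 16 collagen genes with 10 or more estimated reads in a library; dots carry exact 95% counting intervals, and arrowheads are bounds drawn from 3 reads where a library was at 0. The intervals of Col1a1 and Col1a2 and the bounds of Col3a1 and Col6a1 lie above 20-fold. The bound of Col5a1 is 20.3, but the exact interval of its reads begins below 20-fold. The intervals of Col11a2 and Col23a1 include 1.

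Type I collagen, the most abundant protein of scar and bone, is built from 2 chains of Col1a1 and 1 chain of Col1a2. Col1a2 (chr6:4505618-4541543) had the highest value of all members, 0.0391 FPKM in spleen and 13.4 in lung, from about 2 and 809 reads. It ranked 5540 among the 24346 symbols in lung. Its floored ratio was 134, and the ratio of its reads had a 95% counting interval of 98.3 to 2947. Col1a1 (chr11:94936224-94953042) had 0.129 FPKM in spleen and 5.94 in lung, from about 8 and 400 reads, a ratio of 46.1 with an interval of 22.1 to 103. Both type I chains were thus higher in the lung library by more than the counting error of reads. These intervals cover that error only, since 1 pooled library per tissue gives no spread between mice or preparations. The protocol amplified cDNA without molecular identifiers, so reads are not counts of separate molecules and the intervals may be too narrow.

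Col3a1 (chr1:45311538-45349706), the chain of type III collagen that is laid down with type I early in wound repair, was at 0 in spleen and 4.74 FPKM in lung, from about 299 reads. Taking 3 reads as the most that a value of 0 allows, it was at least 87.8-fold higher in lung. Such a bound leaves out the counting error of the other library, and the exact interval for Col3a1 began at 71.0. For every bound of this kind below, the exact interval likewise begins nearer to 1. Types I and III together made up 72.2% of the lung library's collagen FPKM. The class of fibrillar collagens, 11 genes, held 76.0% of it in lung and 19.9% in spleen.

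Among the other fibrillar chains, Col5a1 (chr2:27886381-28039510) helps to start type I fibrils. It was at 0 in spleen and 0.715 FPKM in lung, from about 69 reads, or at least 20.3-fold higher. Taking 3 reads for spleen sets this bound for Col5a1, and the exact interval of its reads begins below 20-fold. Col5a2, its partner chain, was at 0 in spleen and 0.0663 FPKM in lung, about 5 reads. Col5a3, a further type V chain, had 0.0820 FPKM in spleen and was at 0 in lung, also about 5 reads, so a direction for these last 2 genes rests on few reads. Col11a2, a chain of cartilage fibrils, had nearly even values of 0.465 and 0.394 FPKM, a ratio of 0.847 with an interval of 0.469 to 1.53, and 0.628 after both libraries were scaled to the same total. Col27a1 likewise had 0.104 and 0.103 FPKM. Col2a1, Col11a1 and Col24a1 were at 0 in both libraries. Within the class, Col11a2 and Col27a1 thus lay near a ratio of 1 while Col1a1, Col1a2 and Col3a1 were over 20-fold higher in lung.

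Col6a1 and Col6a2 encode the α1 and α2 chains of type VI collagen and lie beside each other on chromosome 10, 85161 bases apart. Col6a1 (chr10:76708792-76726044) was at 0 in spleen and 2.39 FPKM in lung, from about 109 reads, at least 32.1-fold higher (exact interval from 25.6). Col6a2 (chr10:76595756-76623630) had 0.0274 FPKM in spleen and 2.1 in lung, from about 1 and 101 reads. Its floored ratio of 21 is just over the threshold, and the interval of its reads ran from 15.6 to 3548. Col6a3, whose chain joins these chains in the common form of type VI collagen, was at 0 in both libraries. In lung 3 reads of Col6a3 would be 0.0273 FPKM, so Col6a1 was at least 87.6 times and Col6a2 at least 77 times its level. The exact intervals of these ratios begin at 69.8 and 61.4. Col6a4 (0.0133 FPKM) and Col6a6 (0.0140 FPKM) had about 1 read each in spleen and 0 in lung, and Col6a5 was at 0 in both.

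Col4a1 and Col4a2, the chains of the basement membrane network found in nearly all tissues, are neighbors on chromosome 8 that point away from each other, and their annotated spans overlap by 85 bases. Col4a1 (chr8:11198423-11312889) had 0.0452 FPKM in spleen and 0.941 in lung, from about 3 and 70 reads. Its floored ratio was 9.41, and its reads gave a ratio of 20.8 with an interval of 6.75 to 102. Col4a2 (chr8:11312805-11449287) was at 0 in spleen and 0.820 FPKM in lung, from about 60 reads, or at least 17.7-fold higher (exact interval from 13.9). The chains of specialized basement membranes, such as that of the kidney glomerulus, were not above 0 in lung. Col4a3 and Col4a4 had 0.0115 and 0.0254 FPKM in spleen, from about 1 and 3 reads, and Col4a5 and Col4a6 were at 0 in both libraries.

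**Figure D3:**
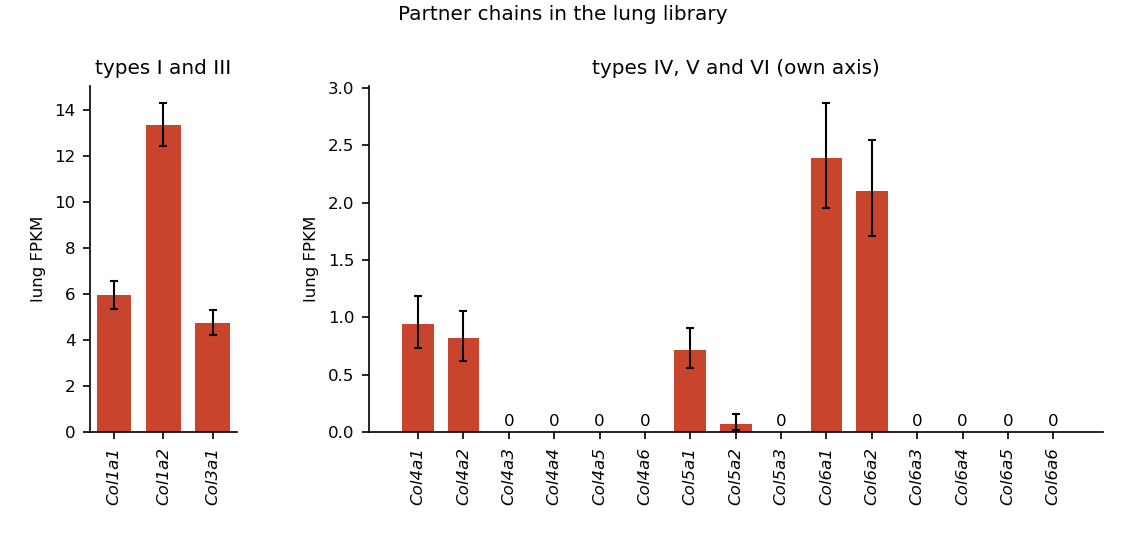
FPKM of the chains of types I, III, IV, V and VI in the lung library (bars from 0, with exact 95% Poisson intervals of the estimated reads; 0 marks genes listed at 0). Col1a2 stands above Col1a1 and Col3a1, Col4a1 and Col4a2 are alike within counting error, as are Col6a1 and Col6a2, and Col6a3 is at 0 beside its partners.

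Levels of partner chains in lung were compared on the FPKM scale, which accounts for transcript length. Col6a1 was 1.14 times Col6a2, with a counting interval of 0.858 to 1.5, and Col4a1 was 1.15 times Col4a2, with an interval of 0.802 to 1.65, so neither pair differed beyond counting error. The type I chains differed beyond the counting error of reads. Col1a2 was 2.25 times Col1a1 (1.99 to 2.54), which is not the ratio of the chains in the protein. Col1a1 was 1.25 times Col3a1 (1.08 to 1.46). Col5a1 was 10.8 times Col5a2 (4.41 to 34.3) in lung. Type V collagen is commonly built with more α1 than α2 chains. Neighbors in the genome did not always have like levels. Col3a1 and Col5a2 lie 24624 bases apart on chromosome 1, and Col3a1 was 71.5 times Col5a2 (30.4 to 222).

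The fibril-associated collagens, which sit on the surface of fibrils and have short interrupted helices, included the members with the highest values in spleen. Of 9 genes, 4 had the higher value in spleen and 2 in lung, and the class held 54.0% of collagen FPKM in spleen and 2.15% in lung. Col9a3 (chr2:180598102-180622192), a chain of cartilage, had 0.987 FPKM from about 27 reads in spleen and 0 in lung. It was at least 10.2-fold lower in lung (exact interval from 7.76). Col14a1 (chr15:55307644-55520803), which regulates the diameter of fibrils in skin and tendon, had 0.665 FPKM from about 38 reads in spleen and 0 in lung. It was at least 14.3-fold lower (exact interval from 11.1). Col20a1 had 0.485 FPKM from about 24 reads in spleen and 0.0213 FPKM from about 1 read in lung. The spleen value of Col20a1 was 22.7 times that in lung without a floor (interval 4.44 to 1121) and 4.85 times with it. Col9a1 and Col9a2, the partners of Col9a3 in type IX collagen, were at 0 in both libraries.

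Within the same class Col12a1 (chr9:79598987-79721141), which is found on type I fibrils of stressed tissue, was higher in lung. It was at 0 in spleen and 0.458 FPKM in lung, from about 61 reads of a transcript of 11511 bases. It was at least 17.9-fold higher (exact interval from 14.1). Col19a1, a minor chain of basement membrane zones, had 0.0280 and 0.238 FPKM from about 1 and 11 reads, a ratio of 8.51 with an interval of 1.41 to 417. Col16a1 had about 3 reads in spleen and 0 in lung, and Col22a1 was at 0 in both. Annotated spans overlap Col9a3 with Tcfl5 and Col10a1 with Nt5dc1. Further members overlap genes with no value in these libraries, such as Col14a1 with Gm52209 and Gm18787 and Col20a1 with Gm30797. The kit does not mark strand, so reads shared by such pairs cannot be assigned. Nt5dc1 had 33.0 and 28 FPKM in spleen and lung, and Tcfl5 had 0.0483 and 0.

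**Figure D4:**
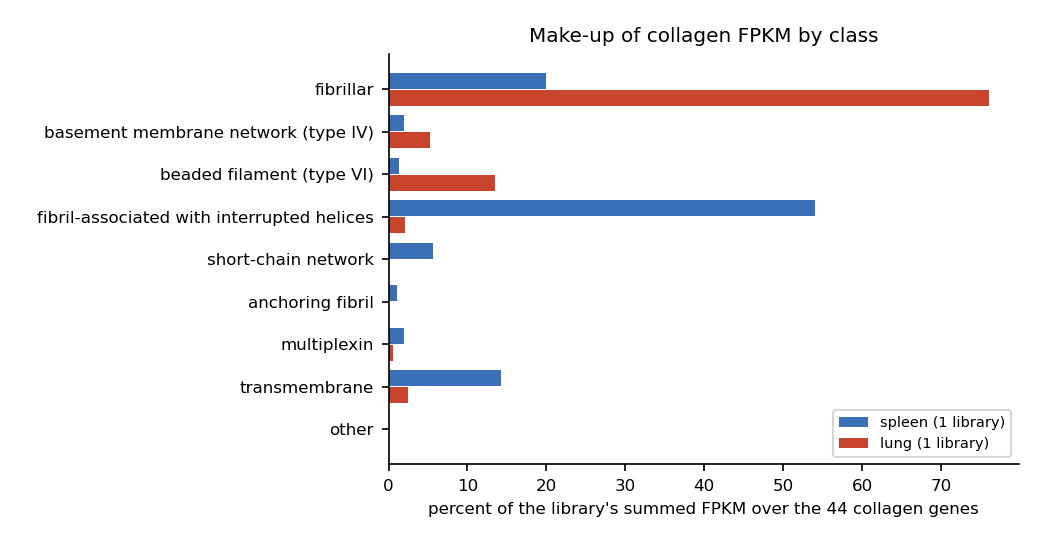
Share of the summed collagen FPKM held by each of 9 classes, in percent, in the spleen library and the lung library (1 library each, no error bars). Fibrillar genes hold 76.0% in lung and 19.9% in spleen, fibril-associated genes 2.15% and 54.0%, and type VI genes 13.5% and 1.33%.

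Transmembrane collagens stay anchored in the cell that makes them. Col23a1 (chr11:51289679-51583925) was the member with the most reads in both libraries together that did not differ beyond counting error, with 0.548 FPKM in spleen and 0.716 in lung, from about 31 and 46 reads. Its ratio was 1.31 with an interval of 0.811 to 2.13, and 0.969 after scaling to the same total. Col13a1 was at 0 in spleen and 0.0922 FPKM in lung, about 3 reads, Col17a1 had about 2 reads in spleen and 0 in lung, and Col25a1 was at 0 in both. Col23a1 and Col11a2 were the only 2 members with over 20 reads in both libraries.

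The remaining classes were low. Col15a1 and Col18a1 are multiplexins, which carry anti-angiogenic fragments at their ends. Col15a1 had 0.0189 and 0.183 FPKM from about 1 and 11 reads, a ratio of 9.69 with an interval of 1.41 to 417, and Col18a1 had about 3 reads in spleen and 0 in lung. Of the short-chain network genes Col10a1, a marker of hypertrophic cartilage, had 0.231 FPKM from about 7 reads in spleen and 0 in lung. It was at least 2.65-fold lower in lung (exact interval from 1.64). Col8a1 and Col8a2 were at 0 in both. Col7a1, the anchoring fibril of skin, had about 4 reads in spleen and 0 in lung. Col26a1 had about 1 read in lung and 0 in spleen, and Col28a1 was at 0 in both.

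Genes that modify, fold and crosslink collagen were set beside the chains. The 14 hydroxylase genes and their partners included none over 20-fold in either direction, with 8 higher and 5 lower in lung and a median log2 ratio of 0.52, which was 0.093 after scaling to the same total, against 0 over all symbols. P4hb, a subunit of prolyl 4-hydroxylase that also folds other proteins, had 123 and 183 FPKM in spleen and lung, and Ppib, a proline isomerase, had 129 and 272. Plod1 and Plod3, which hydroxylate lysine in collagen, were 3.62 times (interval 3.02 to 4.34) and 2.71 times (2.27 to 3.27) as high in lung. Plod2, the other lysyl hydroxylase, was lower in lung, with 0.729 and 0.222 FPKM and a ratio of 0.305 (0.126 to 0.671). Colgalt1, which adds galactose to collagen, had 22.8 and 33.2 FPKM, and Colgalt2 was at 0 in both.

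Serpinh1 (chr7:99345375-99353239), the collagen-specific chaperone HSP47, had 0.0954 FPKM in spleen and 2.61 in lung, from about 2 and 61 reads. Its floored ratio was 26.1 and its reads gave an interval of 7.12 to 227, and it was the only gene over 20-fold among 6 genes of folding and secretion. Of these 6 genes 3 were higher and 3 lower in lung, with a median log2 ratio of 0.074, which was -0.36 after scaling to the same total. The secretory coat genes of that list, which every cell uses, included Sec13 with 124 and 161 FPKM and Sec31a with 48.2 and 41.0. Sec13 was lower in lung after scaling to the same total. Mia3 was lower in lung with a ratio of 0.613 (0.535 to 0.703), and so was Sec24d with 0.461 (0.369 to 0.578). None of the 8 genes of propeptide removal was over 20-fold, and the highest in lung were Pcolce with 0.145 and 0.766 FPKM and Adamts2 with 0.0683 and 0.470. Pcolce2 had 0.756 FPKM from about 33 reads in spleen and 0 in lung, at least 12.6-fold lower.

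Of the 5 oxidases that crosslink collagen, Loxl3 was over 20-fold higher in lung, with 0.126 FPKM in spleen and 2.94 in lung and a ratio of 23.4 (interval 9.94 to 74.4). Lox was at 0 in spleen and 1.83 FPKM in lung, from about 95 reads, at least 27.8-fold higher by reads (exact interval from 22.2). Its floored ratio was 18.3. Loxl2 was nearly even at 2.33 and 2.41 FPKM, with the order turned after scaling to the same total. Loxl4 had 0.295 FPKM in spleen and 0 in lung, and Loxl1 was at 0 in both. The fold of these enzymes was thus uneven within the family.

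Collagen receptors, by which cells sense and hold collagen, were also read. None of 11 was over 20-fold in either direction, 7 were higher and 4 lower in lung, and their median log2 ratio was 0. Itgb1, the β1 subunit of all collagen-binding integrins, had 129 and 149 FPKM, an order that turned after scaling to the same total. Lair1, an inhibitory receptor of leukocytes for collagen, had 6.10 FPKM in spleen and 10.6 in lung. Ddr1, a receptor tyrosine kinase for collagen, had 2.17 and 0.521 FPKM, and its ratio of 0.240 (interval 0.137 to 0.383) put it lower in lung. Itga1 was also lower, with 0.301 and 0.0147 FPKM (interval 0.00603 to 0.202), and Gp6 had 0.307 FPKM in spleen and 0 in lung. Itga2 was higher in lung, with 0.385 and 1.40 FPKM and a ratio of 3.63 (2.35 to 5.63). Mag was higher too, with 0.782 and 3.29 FPKM.

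Of 15 proteins that bind collagen in the matrix, 5 were over 20-fold higher in lung, where 1.62% of all symbols were, with a median log2 ratio of 1.97. Fn1, fibronectin, had 0.857 FPKM in spleen and 33.4 in lung, and Sparc, a collagen-binding glycoprotein, had 0.159 and 22.9. Dcn and Bgn, the proteoglycans decorin and biglycan that coat fibrils, had 0.122 and 22.2 FPKM and 0.310 and 13.1 FPKM. Tnc, tenascin C of healing wounds, had 0.0700 and 2.23 FPKM. Each of Dcn, Fn1 and Sparc was higher in lung than any collagen chain. Postn, Fbln2 and Nid1 were above 0 in spleen alone, and Fmod and Tnxb were at 0 in both.

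**Figure D5:**
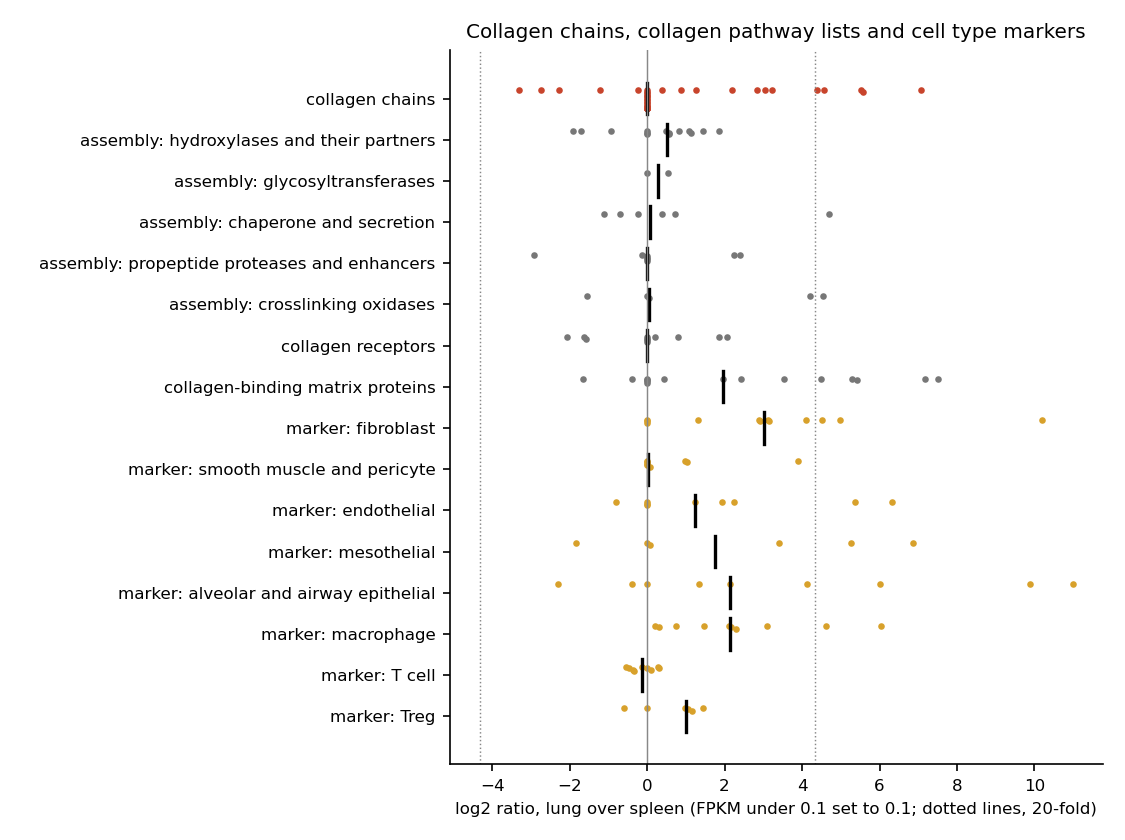
Log2 ratio of lung over spleen, with FPKM under 0.1 set to 0.1, for each gene (dots, spread vertically for display) of the collagen chains, the pathway lists and the marker lists; black bars are medians and dotted lines mark 20-fold. The collagen chains reach from below 0 to over 20-fold around a median of 0, whereas the medians of the matrix, fibroblast, epithelial and macrophage lists lie between 1.97 and 3.01.

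Markers of the labelled cells were present. Foxp3 had 18.7 FPKM in spleen and 41.8 in lung, Cd4 195 and 179, and Cd3e 513 and 369, and Actb had 1325 and 1242. Of 9 T cell markers listed 3 were higher and 6 lower in lung, of 6 Treg markers 4 and 2, and after scaling to the same total all 9 T cell markers were lower. None in either list was over 20-fold. Markers of other cell types are given here with their whole lists. Of 12 fibroblast markers, 9 were higher in lung and none lower, with sums of 24.2 FPKM in spleen and 188 in lung, of which Gsn alone held 23.9 and 59.2. Mgp, an inhibitor of calcification, was at 0 in spleen and 116 FPKM in lung, and Mfap5 and Inmt were at 0 in spleen and 3.18 and 2.29 FPKM in lung. Pdgfra was at 0 and 0.736 FPKM, Tcf21 at 0 and 0.750, and Clec3b at 0 and 0.867. Dpt had 0.203 and 1.78 FPKM, and Pi16 had 0.142 and 2.46. Pdgfrb, Mfap4 and Cthrc1 were at 0 in both libraries. The part of these cells in the collagen values was not tested.

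Other marker lists also differed between the libraries. Of 10 macrophage markers all were higher in lung, with sums of 670 and 26366 FPKM, led by Lyz2 with 376 and 24947 and with Cd14 at 11.4 and 277, although Csf1r and Mrc1 turned lower after scaling to the same total. Of 9 epithelial markers, 7 were higher in lung, with sums of 155 and 3488 FPKM, and Scgb1a1, Sftpc and Krt8 were over 20-fold higher. Scgb1a1, the secretory protein of club cells, had 1.49 and 3021 FPKM, and Hopx, which Tregs also express, held 142 FPKM of the sum in spleen. Among 6 mesothelial markers 4 were higher in lung, with sums of 0.466 and 16.7 FPKM. Krt19 and Msln were over 20-fold higher, and Wt1 was at 0 in both. Endothelial markers summed to 55.5 and 48.9 FPKM, of which Pecam1, a gene of leukocytes too, held 54.8 and 31.7. Cldn5 and Egfl7 were over 20-fold higher in lung, and Tie1 and Emcn were at 0 in both. Smooth muscle and pericyte markers summed to 3.16 and 5.98 FPKM, with Cnn1, Cspg4 and Rgs5 at 0 in both. The part of each of these lists in the collagen values was not tested either.

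Promoters were read for the genes over 20-fold higher in lung, to show whether common core motifs recur before them. RefSeq windows (GRCm38.p6) were found for 35 of the 44 members, and not for Col1a1, Col2a1, Col4a3, Col5a2, Col9a3, Col12a1, Col14a1, Col22a1 and Col26a1. The 250 bases before the outermost annotated start of 4 genes are printed on the strand of the gene. Capitals mark 3 core promoter motifs on either strand, at any position of the window. Motifs before a start that lies within the gene are thus not shown. The TATA box was searched as TATAAA. The CCAAT box was searched by the letters of its name, and the sequence GGGCGG stood for the GC box. None of the matches printed overlaps another.
Col1a2, chr6:4505368-4505617, plus strand: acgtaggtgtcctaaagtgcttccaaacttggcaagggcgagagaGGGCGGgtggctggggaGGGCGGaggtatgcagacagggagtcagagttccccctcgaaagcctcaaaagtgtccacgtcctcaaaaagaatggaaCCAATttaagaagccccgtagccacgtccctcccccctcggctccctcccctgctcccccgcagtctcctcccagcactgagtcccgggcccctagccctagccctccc
Col3a1, chr1:45311288-45311537, plus strand: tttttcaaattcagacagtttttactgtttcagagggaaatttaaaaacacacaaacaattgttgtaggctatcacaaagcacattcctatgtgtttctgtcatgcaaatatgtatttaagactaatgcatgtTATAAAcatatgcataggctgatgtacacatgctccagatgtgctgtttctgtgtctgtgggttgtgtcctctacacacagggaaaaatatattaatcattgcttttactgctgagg
Col6a1, chr10:76726045-76726294, minus strand: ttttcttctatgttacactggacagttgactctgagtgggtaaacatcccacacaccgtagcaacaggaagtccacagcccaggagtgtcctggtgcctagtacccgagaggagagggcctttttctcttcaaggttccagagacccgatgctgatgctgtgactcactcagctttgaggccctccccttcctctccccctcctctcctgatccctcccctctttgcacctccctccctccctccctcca
Col6a2, chr10:76623631-76623880, minus strand: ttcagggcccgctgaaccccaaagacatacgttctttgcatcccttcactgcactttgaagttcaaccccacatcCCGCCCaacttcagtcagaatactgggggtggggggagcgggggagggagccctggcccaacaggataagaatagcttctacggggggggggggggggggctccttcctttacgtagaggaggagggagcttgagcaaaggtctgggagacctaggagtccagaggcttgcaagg
The windows were not alike. Col1a2 held 1 CCAAT box that begins at -109 from the start and 2 GC boxes, the farther at -205. Col3a1 held 1 TATAAA at -117 and neither of the others, Col6a2 held 1 GC box at -175 on the opposite strand, and Col6a1 held none of the 3 motifs in this window. Their GC content was 62% in Col1a2, 35.2% in Col3a1, 56% in Col6a1 and 59.2% in Col6a2, where the mean over all 32851 windows of this table was 53.2%. Over all members, TATAAA was found for 5 of 35 genes, CCAAT for 13 and GGGCGG for 21, or in 13.2%, 34.2% and 57.9% of their 38 windows. The same motifs were found in 12.4%, 33.8% and 32.7% of all windows. A match describes letters only and is no measure of binding.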

How the data were processed

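GFP+CD4+ cells of the pooled mice were sequenced as 75-base single-end reads from SMART-Seq HT cDNA, which is amplified without molecular identifiers. Reads were mapped to mm10 with TopHat2 2.1.1, Bowtie2 2.2.8 and SAMtools 0.1.18, and the deposited FPKM were calculated by the authors with Cuffdiff 2.2.1; the annotation and any scaling between libraries are not given in the sources used here. FPKM summed to 599633 in spleen and 808853 in lung, and 9542 and 10638 symbols were at 0.

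Members and lists were chosen with earlier results of these data known. Genes with at least 1 FPKM, genes over 20-fold and partner chains of types I, III, IV, V and VI were named with values, and other members by class. Of the other lists, genes over 20-fold, the 2 highest in lung and genes needed beside them were named. Plod1, Plod2, Plod3, Mia3, Sec24d, Pcolce2, Lox, Loxl4, Ddr1, Itga1, Itga2, Gp6, Mag, Postn, Fbln2 and Nid1 were named after their values were seen. So were Dpt, Tcf21, Clec3b, Pi16, genes whose order depends on the scaling and genes at 0.

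Reads were estimated as FPKM times effective length over the value of 1 read (0.0964 FPKM in spleen and 0.0849 in lung at 1 kb), with lengths of GENCODE M21 transcripts tied to RefSeq for 95.4% of symbols and fragments of 200 ± 80 bases, at least 73. Genes with several transcripts took their median length. Estimated reads summed to 9864207 in spleen and 12882604 in lung. They lay within 0.1 of a whole number for 74.3% and 76.7% of single-length genes with 1 to 10 reads. The value of 1 read was fitted on these same genes, so the shares are no independent check. Among collagen genes with a single transcript length, 15 of 25 values examined lay within 0.1 of a whole number. Ratios carry exact 95% Clopper-Pearson intervals of counting error. The steps were tested on simulated data. Scripts ran in Python 3.11.15 with matplotlib 3.10.9, scipy 1.17.1, numpy 2.4.6 and pandas 2.3.3.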

Additional observations from a re-analysis of the deposited data

How the results depend on the processing

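With 1 library per tissue no replicate could be left out and no p-value was computed. No paired analysis was possible because each tissue has 1 library. The count of collagen genes over 20-fold higher in lung was 5. It was 9 with a floor of 0.01 FPKM, which added Col4a1, Col4a2, Col5a1 and Col12a1, and 0 with a floor or a pseudocount of 1 FPKM. It was 1, Col1a2, for a ratio over 50. With each library credited with at least 3 estimated reads it was 7, adding Col4a1 and Col5a1, and with a pseudocount of 0.1 FPKM it was 4, without Col6a2. It remained at 5, with the same genes, after scaling to the same total (a log2 shift of -0.43), to equal upper quartiles or to a median ratio of 1. The count lower in lung was 4 with a floor of 0.01 FPKM and 0 otherwise. The median log2 ratio was -0.18 with 3 estimated reads. It was 5.53 among members at 1 FPKM or more and 2.52 among members with 10 or more reads, filters that a member passes through its higher library. Of 22 members above 0 in spleen, 8 reached 0.1 FPKM and 14 reached 3 reads. For 12 single genes, 106 of 113 alternative ratios kept their direction, and those of Col4a1, Col4a2, Col5a1, Col12a1, Col9a3, Col14a1 and Col20a1 became 1.0 with a floor of 1 FPKM. None of the settings could reverse ratios as far from 1 as those of these 12 genes, so the count does not test their direction. Col23a1, which has a ratio near 1 and turned after scaling to the same total, is not among them.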

Other observations

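Several proteins that are no collagen chains also carry a stretch of collagen-like helix, among them the C1q subunits of complement, collectins of the surfactant and scavenger receptors of macrophages. A list of 26 such genes was drawn up after earlier values of these libraries were known. They summed to 384 FPKM in spleen and 1055 in lung, which was 93.3 times the sum of the 44 collagen chains in spleen and 31.7 times that in lung. In lung 5 of them were above Col1a2, the highest collagen chain. C1qb had 129 FPKM in spleen and 560 in lung, C1qc had 103 and 282, and C1qa had 40.3 and 112, all made mainly by macrophages. Msr1, a scavenger receptor, had 0.95 and 28.4 FPKM, and Fcna, a ficolin, had 91.3 and 31.6.

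Of these 26 genes, 9 had the higher value in lung and 8 the lower, and 3 were over 20-fold higher and 1 over 20-fold lower, where 1.62% and 1.17% of all symbols were. The surfactant proteins Sftpd and Sftpa1 had 0 and 0.0376 FPKM in spleen and 6.46 and 4.93 in lung. Emid1 was the gene over 20-fold lower in lung, with 2.32 FPKM in spleen and 0.0998 in lung. Most of the summed FPKM of genes with a collagen-like domain thus lay outside the collagen family in both libraries. C1qa, C1qb and Marco are also in the list of macrophage markers, and the part of macrophages in these values was not tested.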
